A study of Homo sapiens with 6 samples.

Results

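The 80 genes described here encode nuclear-coded subunits of the 5 complexes of the mitochondrial respiratory chain, and they were measured on 6 arrays among 18377 genes. They were chosen by symbol alone: probe sets whose only gene symbol began with NDUFA, NDUFB, NDUFC, NDUFS or NDUFV (assembly factors left out), UQCR, COX4I, COX5, COX6, COX7, COX8 or ATP5, or was a succinate dehydrogenase subunit or CYC1. Where a gene had several such probe sets, the one with the highest mean was kept. This gave 34 genes of complex I, 3 of complex II, 8 of complex III, 17 of complex IV and 18 of complex V. ATP5IF1, which encodes an inhibitor of complex V, matched the symbols and is counted with its subunits. The pseudogenes ATP5F1EP2 and UQCRBP1 and the noncoding NDUFV1-DT matched the symbols and were left out. Some other subunits, among them NDUFC2, NDUFS5, SDHB, UQCRFS1, UQCRHL and ATP5F1E, were not analysed here, and neither were the chain's mitochondrially coded subunits.

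Affymetrix HuGene-1_0-st-v1 arrays were used to measure expression in MCF10A-HER2/3 cells, a derivative of the non-tumorigenic human mammary epithelial line MCF10A whose HER2/3 modification the labels do not describe. All 3 groups carried a lentiviral construct that makes a miR when doxycycline is present: CTRL miR, SHP2 miR1 or SHP2 miR2, each with 2 arrays. SHP2 miR1 and SHP2 miR2 are shortened to miR1 and miR2 where array values are listed. Every group, control included, was grown for 15 days in 3D culture in medium with EGF, insulin, cholera toxin, hydrocortisone and horse serum, and received doxycycline from the day after seeding, renewed every 2 days. Both SHP2 miRs target PTPN11, the gene of the tyrosine phosphatase SHP2, which carries signals from growth factor receptors to the RAS pathway. The 3 groups come from 1 cell line. Whether the arrays of a group stand for separate cultures is not in the labels, so the p-values reflect array-to-array spread that may be technical only. RNA came from whole cultures, so fewer cells that express a gene and less of its RNA per cell cannot be told apart.

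The respiratory chain carries electrons from NADH, through complex I, and from succinate, through complex II, by way of ubiquinone to complex III, then by cytochrome c to complex IV, where oxygen is reduced. Complexes I, III and IV pump protons across the inner mitochondrial membrane, and complex V, the ATP synthase, uses the returning protons to make ATP. All but a few subunits are coded in the nucleus. In complex I the core subunits hold the redox centres or descend from the bacterial enzyme, and accessory subunits stabilize the assembly. In complex III, core is used here as a label for CYC1, UQCRC1 and UQCRC2. It does not mean that each holds a redox centre or has a bacterial counterpart. Transcription of these nuclear genes is known to depend on factors such as NRF1, the ETS factor GABP, CREB and YY1.

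PTPN11 itself fell by 1.72 on the log2 scale over both SHP2 miRs (3.28-fold, limma adjusted p = 0.00184). The difference was -2.32 with SHP2 miR1 and -1.11 with SHP2 miR2, and the latter did not pass (adjusted p = 0.0813). In all genes, 771 passed an adjusted p of 0.05 for the average of both SHP2 miRs against control, 281 higher and 490 lower. SHP2 miR1 alone gave 1581 such genes and SHP2 miR2 alone gave 68. With 1 array left out the average count lay between 108, without CTRL miR replicate 2, and 512, without SHP2 miR2 replicate 2. The basal keratins KRT5 and KRT14 were among the brighter genes on every array, with values between 9.69 and 11.48, while the leukocyte gene PTPRC lay between 3.18 and 3.53. Other markers of these lists were less clear. Gene means ran from 3.95 to 11.29 over 5 basal genes and from 3.33 to 7.06 over 4 leukocyte genes.

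The start regions of 4 subunit genes are shown first, because these genes passed the test in some comparison (COX5B, UQCRC1, NDUFB11) or had the most negative average difference (NDUFB3). They were picked after their values were seen. Each runs 5′ to 3′ along the gene's strand, from 250 bases before to 50 bases after a RefSeq transcript start in GRCh38.p14. Capitals mark matches to 4 motifs searched on both strands: NRF1 (GCGCNTGCG), ETS (CCGGAAG), CRE (TGACGTCA) and YY1 (AAGATGGCG). The windows are chr2:97645812-97646111 on the plus strand for COX5B, chr3:48609597-48609896 on the minus strand for UQCRC1, chrX:47144653-47144952 on the minus strand for NDUFB11 and chr2:201071751-201072050 on the plus strand for NDUFB3. The NDUFB11 window lies inside the annotated gene, at the start of one of its transcripts.
COX5B: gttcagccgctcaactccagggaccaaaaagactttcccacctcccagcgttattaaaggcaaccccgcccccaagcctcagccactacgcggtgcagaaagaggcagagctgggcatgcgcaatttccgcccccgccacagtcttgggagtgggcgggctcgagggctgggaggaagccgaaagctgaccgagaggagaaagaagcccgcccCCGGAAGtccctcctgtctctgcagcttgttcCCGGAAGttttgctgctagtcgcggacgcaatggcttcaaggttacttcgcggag
UQCRC1: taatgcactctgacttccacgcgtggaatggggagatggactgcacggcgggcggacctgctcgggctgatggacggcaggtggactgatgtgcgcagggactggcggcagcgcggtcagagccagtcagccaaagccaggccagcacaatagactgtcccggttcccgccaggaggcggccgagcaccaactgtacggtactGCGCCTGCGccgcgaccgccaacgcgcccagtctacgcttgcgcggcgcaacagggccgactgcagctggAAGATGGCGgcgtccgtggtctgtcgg
NDUFB11: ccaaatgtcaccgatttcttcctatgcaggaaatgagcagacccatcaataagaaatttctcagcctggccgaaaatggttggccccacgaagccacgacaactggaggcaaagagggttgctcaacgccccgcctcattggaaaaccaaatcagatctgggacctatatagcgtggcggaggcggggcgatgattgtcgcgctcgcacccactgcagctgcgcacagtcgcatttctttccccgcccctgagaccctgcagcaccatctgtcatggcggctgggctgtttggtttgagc
NDUFB3: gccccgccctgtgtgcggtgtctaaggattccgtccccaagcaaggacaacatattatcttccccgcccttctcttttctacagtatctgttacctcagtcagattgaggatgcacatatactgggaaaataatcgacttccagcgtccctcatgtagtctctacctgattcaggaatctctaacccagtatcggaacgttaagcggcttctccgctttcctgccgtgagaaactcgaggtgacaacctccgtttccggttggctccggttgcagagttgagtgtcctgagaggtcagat

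Counting the first transcribed base as 1, the COX5B window held 2 ETS matches, from -37 to -31 and from -5 to 2. The UQCRC1 window held an NRF1 match from -47 to -39 and a YY1 match from 24 to 32, and the windows of NDUFB11 and NDUFB3 held none of the 4 motifs. The matches shown do not overlap one another. A match is a string of letters and does not show that a factor binds there, and the absence of a match says only that these letters are not in the window. Of the 80 subunit genes, 67 had a window. The NRF1 motif was in 22 of them (32.8%), against 11% of the 15842 windows of protein-coding genes. The shares for the ETS motif were 28.4% and 14.2%, for YY1 10.4% and 2.74%, and for CRE 5.97% and 2.59%.

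The subunit genes with an NRF1 match had a median difference of 0.10 over both SHP2 miRs, and those without had 0.05. The order was the same with SHP2 miR1 (0.14 with and 0.07 without) and the opposite with SHP2 miR2 (0.03 and 0.05). For YY1 the medians with and without a match were 0.10 and 0.05 on average, 0.20 and 0.07 for miR1, and 0.03 and 0.05 for miR2. For ETS they were 0.05 and 0.05 on average, 0.13 and 0.07 for miR1, and 0.04 and 0.04 for miR2. The 4 genes with a CRE match had a median of 0.19 on average, against 0.05 without one, 0.16 against 0.07 with SHP2 miR1, and 0.12 against 0.03 with SHP2 miR2.

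Averaged over both SHP2 miRs, 1 of the 80 subunit genes passed the test, COX5B, which was higher, and 0 were lower. Among all genes 4.2% passed, 1.53% higher and 2.67% lower, so the subunits' share was not above the background. At an unadjusted p of 0.05, 7 subunit genes were higher (background 8.31%) and 1 was lower (background 12.6%). The shift of the group as a whole was small: the median difference was 0.05 against 0.02 over all genes, and 56 of 80 differences (70%) were above 0 against 52.8% of all genes. The gap was wider among genes above the 40th percentile of probe set means. There the median was 0.06 for the 75 subunit genes and -0.03 for all genes, with 72% and 46.1% of differences above 0. On 20 subunit genes all 4 SHP2 miR arrays lay above both controls, against a background of 12.6%, and on 2 (NDUFA12 and ATP5F1C) all 4 lay below, against 13.6%. Array scaling moves these small shifts: the subunits' median was 0.10 after quantile normalization, where that of all genes was 0.00. Centring each array on its median gave 0.02 for the subunits and -0.02 for all genes, and so moved both by the same amount.

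The data bounded most of these differences to small sizes. The 95% interval of the average difference lay within 0.5 log2 units of 0 (1.41-fold) for 58 of the 80 genes and within 1 unit (2-fold) for 79. The median distance from estimate to interval end was 0.30. Subunit genes varied little between the arrays of a group, with a median gap between replicates of 0.09 for CTRL miR, 0.09 for SHP2 miR1 and 0.12 for SHP2 miR2, against 0.19, 0.16 and 0.18 over all genes. They were mostly bright, and 75 of 80 had a mean above the 40th percentile of probe sets. The 5 below it were UQCRB, ATP5MGL and the tissue-restricted isoforms COX6B2, COX7B2 and COX8C.

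**Figure D1:**
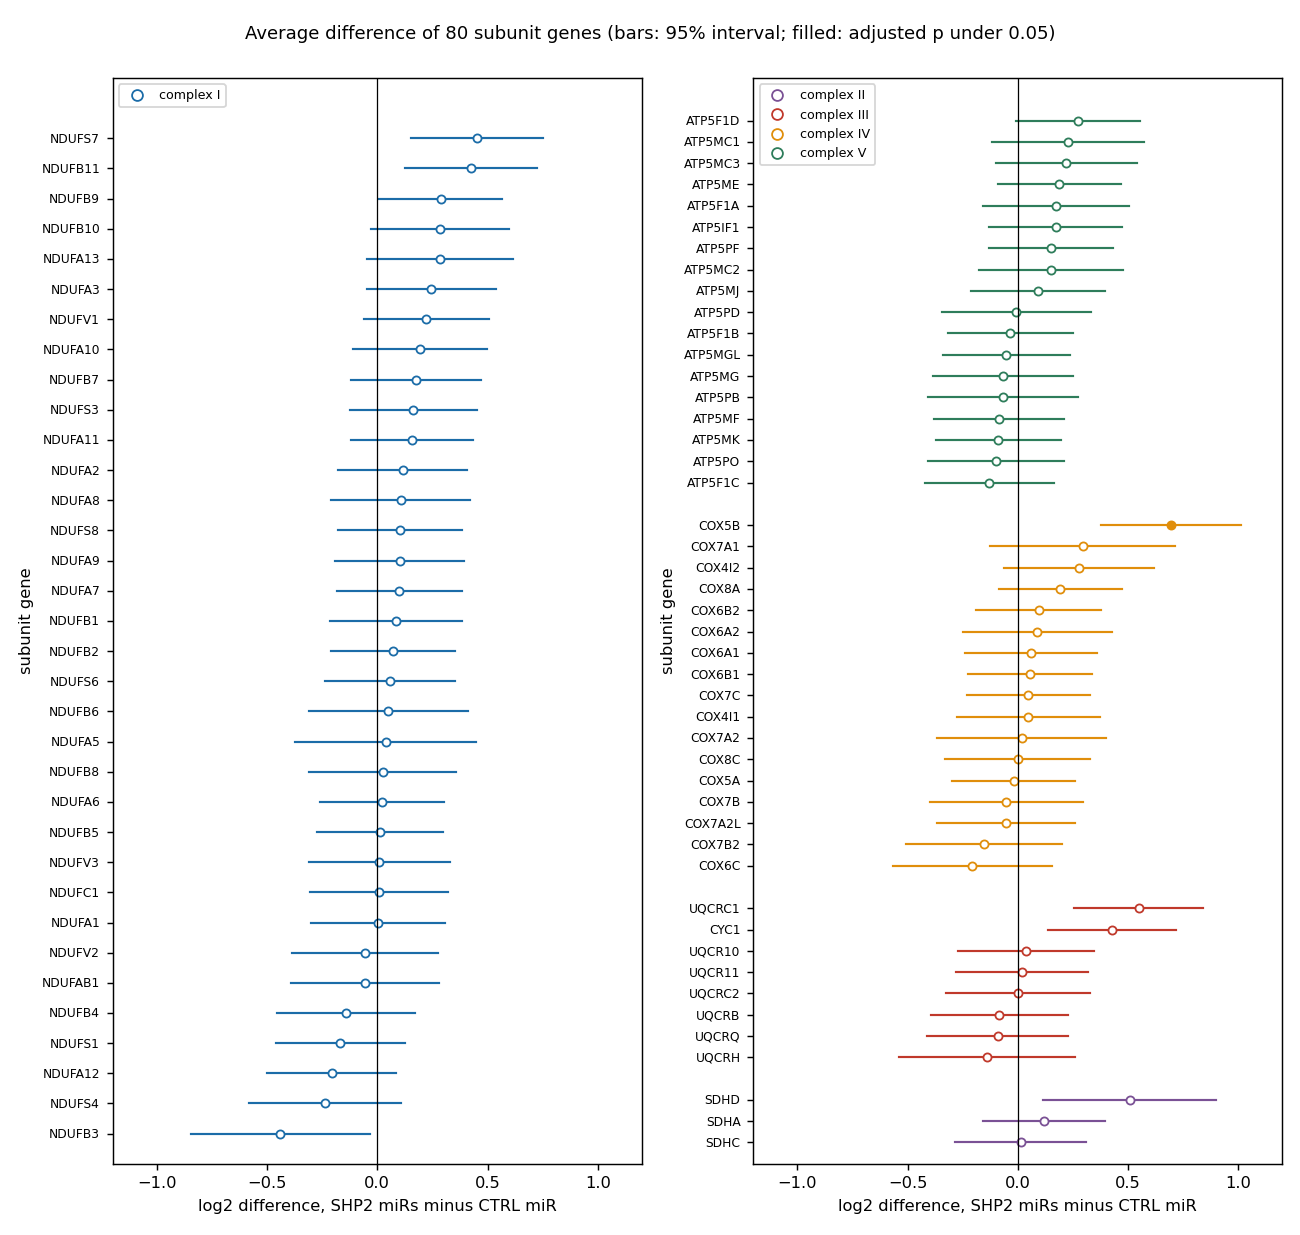
Average log2 difference between the SHP2 miR arrays and the CTRL miR arrays for each of the 80 subunit genes, with complex I on the left and complexes II to V on the right. Points are estimates, bars are 95% intervals and a filled point marks an adjusted p under 0.05, which COX5B alone has, at 0.69.

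Complex IV, cytochrome c oxidase, held the only subunit gene that passed the test on the average of both SHP2 miRs. COX5B encodes a small structural subunit on the matrix side. Its values were 8.45 and 8.14 for CTRL miR, 8.86 and 8.94 for miR1, and 9.02 and 9.14 for miR2 (log2 probe set values). All 4 SHP2 miR arrays lay above both controls, and the 2 controls differed by more than the arrays of either SHP2 miR. COX5B rose by 0.69 (SE 0.14, 95% interval 0.38 to 1.01, 1.62-fold, limma adjusted p = 0.0291). With SHP2 miR1 alone the difference was 0.60 (adjusted p = 0.0531) and with SHP2 miR2 alone 0.79 (adjusted p = 0.0946), neither of which passed. The call was lost when any 1 of the 6 arrays was left out, with differences between 0.54 and 0.85 and adjusted p between 0.0616 and 0.289.

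The other 16 genes of complex IV did not pass in any comparison. COX5A, which encodes the neighbouring subunit, had 9.70 and 9.68 for CTRL miR, 9.76 and 9.77 for miR1, and 9.60 and 9.55 for miR2, and its average difference was -0.02. COX6C had the most negative difference at -0.21 (95% interval -0.57 to 0.15), COX8A had 0.19 and COX7A2L, which links complexes III and IV into supercomplexes, had -0.05. Over the 10 widely expressed subunits the median was 0.05, with 7 above 0.

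Several complex IV subunits have tissue-restricted forms: COX4I2 in lung, COX6A2 and COX7A1 in heart and skeletal muscle, and COX6B2, COX7B2 and COX8C in testis. The 6 such genes had a median of 0.09 over both SHP2 miRs, and none passed. The largest differences were 0.29 for COX7A1 (95% interval -0.13 to 0.71) and 0.28 for COX4I2 (95% interval -0.06 to 0.62). Their common partners had small differences too, with 0.05 for COX4I1, 0.06 for COX6A1, 0.05 for COX6B1 and 0.02 for COX7A2. COX6A2 had 0.09 and COX6B2 0.09, and COX7B2 had -0.15 beside -0.05 for COX7B. COX8C had 0.00. The sign turned under at least 1 alternative scaling or with 1 array left out for COX4I1, COX6A2, COX7A2, COX7B, COX7B2 and COX8C, and with a trend over gene length removed for COX6A1. The complex IV protein listed under its older names NDUFA4 and NDUFA4L2, now COXFA4 and COXFA4L2, did not match the symbols, and these genes had 0.00 and 0.03. COXFA4L3, a further gene with this name stem, had 5.32 and 5.01 for CTRL miR, 4.98 and 4.90 for miR1, and 4.90 and 4.82 for miR2. All 4 SHP2 miR arrays lay below both controls, and the average of -0.27 (95% interval -0.58 to 0.05) did not pass (adjusted p = 0.308).

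Complex III passes electrons from ubiquinol to cytochrome c. Of its 3 core genes, UQCRC1 and CYC1 had average differences of 0.55 and 0.43, while UQCRC2, at 0.00, lay within the range of the 5 accessory genes. The roles were assigned with the values known, and no test was made between them. UQCRC1, core protein 1 on the matrix side, had 8.86 and 8.66 for CTRL miR, 9.37 and 9.32 for miR1, and 9.27 and 9.29 for miR2. All 4 SHP2 miR arrays lay above both controls by at least as much as the controls differed from each other. UQCRC1 rose by 0.58 with SHP2 miR1 (SE 0.15, 95% interval 0.24 to 0.92, limma adjusted p = 0.0454). The difference was 0.51 with SHP2 miR2 (adjusted p = 0.237) and 0.55 on average (95% interval 0.26 to 0.84, adjusted p = 0.0505), and neither passed.

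CYC1, which encodes the haem protein cytochrome c1, showed a like order of arrays. Its values were 9.68 and 9.60 for CTRL miR, 10.05 and 10.18 for miR1, and 9.97 and 10.07 for miR2. No SHP2 miR array overlapped the controls, yet the average difference of 0.43 (95% interval 0.14 to 0.72) did not pass (adjusted p = 0.105). UQCRC2, the partner of UQCRC1, had 0.00 (95% interval -0.33 to 0.33). The interval of UQCRC2 overlapped that of UQCRC1, and the difference between the 2 genes was not tested.

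The accessory genes of complex III lay between -0.14 (UQCRH, the acidic hinge protein next to cytochrome c1) and 0.04 (UQCR10). UQCRQ, a small membrane subunit, had 6.94 and 7.06 for CTRL miR, 7.28 and 7.18 for miR1, and 6.43 and 6.74 for miR2. Its arrays with SHP2 miR1 lay above both controls and those with SHP2 miR2 below. UQCRQ differed by -0.64 between SHP2 miR2 and SHP2 miR1 (95% interval -1.01 to -0.28, adjusted p = 0.129), which did not pass.

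**Figure D2:**
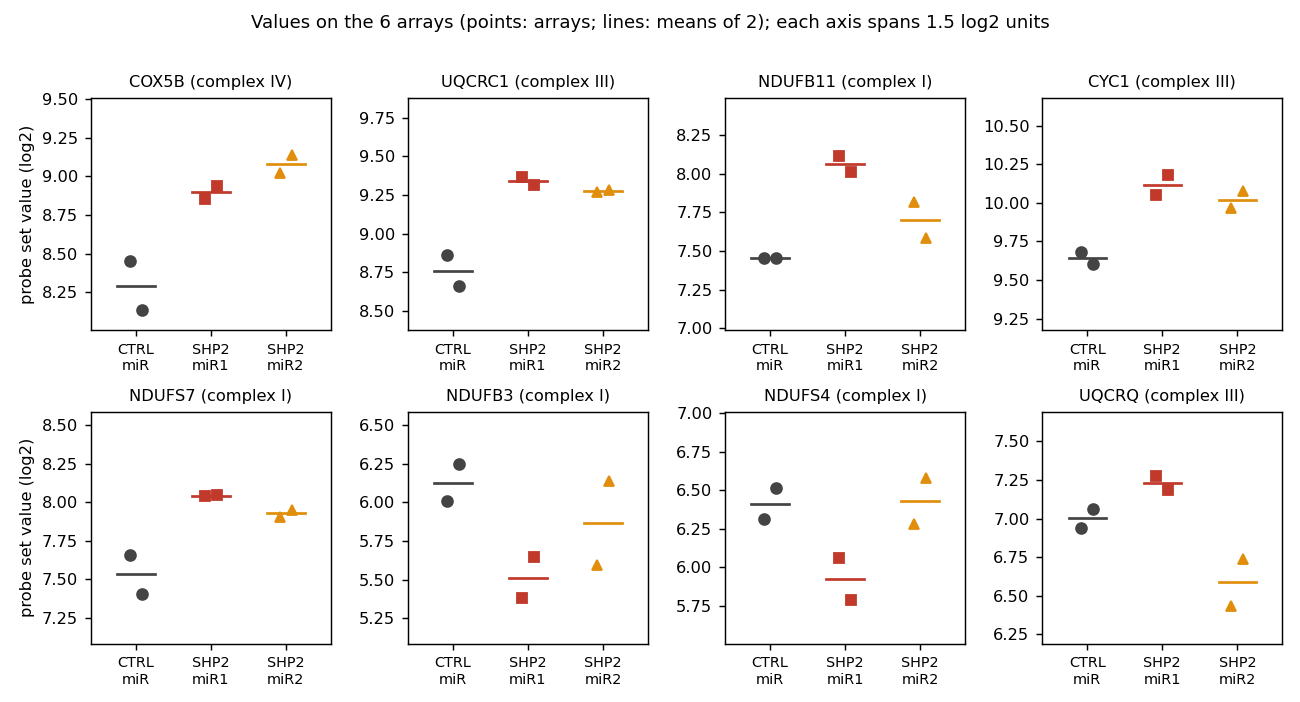
Probe set values (log2) of 8 subunit genes on each of the 6 arrays, by group. Points are arrays and horizontal lines are means of 2 arrays, and every panel spans the same range. COX5B, UQCRC1, NDUFB11, CYC1 and NDUFS7 have all 4 SHP2 miR arrays above the 2 controls, while UQCRQ is higher with SHP2 miR1 and lower with SHP2 miR2. The 8 genes were picked after their values were seen.

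Complex I, NADH dehydrogenase, had a median difference of 0.08 over its 34 genes, 27 of them above 0, and none passed on average. NDUFB11, an accessory subunit of the membrane arm coded on the X chromosome, rose with SHP2 miR1. Its values were 7.46 and 7.45 for CTRL miR, 8.11 and 8.01 for miR1, and 7.82 and 7.58 for miR2. The arrays with SHP2 miR1 lay furthest from the controls and those with SHP2 miR2 in between. The rise with SHP2 miR1 was 0.61 (SE 0.15, 1.52-fold, limma adjusted p = 0.0435), while SHP2 miR2 gave 0.25 (adjusted p = 0.599). The contrast of miR2 with miR1, at -0.36, did not pass (adjusted p = 0.268).

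Among the 6 core genes of complex I the largest difference was in NDUFS7, which encodes an iron-sulphur subunit at the site where ubiquinone is reduced. It had 7.66 and 7.41 for CTRL miR, 8.04 and 8.04 for miR1, and 7.91 and 7.95 for miR2. The groups did not overlap, but the average difference of 0.45 (95% interval 0.15 to 0.75) did not pass (adjusted p = 0.1003). NDUFV1, the flavin subunit that takes electrons from NADH, had 0.22, NDUFS3 had 0.16, NDUFS8 0.10, NDUFV2 -0.06 and NDUFS1 -0.17. The median was 0.13 for the 6 core genes and 0.06 for the 28 accessory genes.

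The 2 most negative differences of complex I were in accessory genes. NDUFB3, in the membrane arm, had 6.01 and 6.25 for CTRL miR, 5.38 and 5.65 for miR1, and 5.60 and 6.14 for miR2. One array of SHP2 miR2 lay between the 2 controls. The average was -0.44 (95% interval -0.85 to -0.03, adjusted p = 0.209), and SHP2 miR1 gave -0.62 (adjusted p = 0.0983). NDUFS4, an accessory subunit of the peripheral arm, had 6.31 and 6.51 for CTRL miR, 6.06 and 5.79 for miR1, and 6.28 and 6.58 for miR2. Both arrays with SHP2 miR1 and 1 of the 2 with SHP2 miR2 were lower than both controls there, the latter by little, and the difference of -0.49 with SHP2 miR1 did not pass (adjusted p = 0.117). A second, dimmer probe set of NDUFS4 gave 0.00 on average.

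Other accessory genes of complex I with SHP2 miR1 stood at 0.48 for NDUFA13, 0.43 for NDUFB10 and 0.43 for NDUFB9, none past the threshold. NDUFA5 and NDUFB6 had -0.25 and -0.16 with SHP2 miR1 but 0.33 and 0.26 with SHP2 miR2. Neither difference between the SHP2 miRs passed (adjusted p = 0.217 for NDUFA5 and 0.277 for NDUFB6).

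Complex II, succinate dehydrogenase, also belongs to the tricarboxylic acid cycle and pumps no protons. SDHA, its flavoprotein, had 9.54 and 9.58 for CTRL miR, 9.64 and 9.62 for miR1, and 9.72 and 9.72 for miR2. The groups did not overlap, and the average of 0.12 (95% interval -0.16 to 0.40) did not pass. SDHD, one of the membrane anchors, had 8.16 and 8.72 for CTRL miR, 8.98 and 9.003 for miR1, and 8.79 and 9.01 for miR2. The 2 controls differed by more than 0.5 units, and the average of 0.51 did not pass (adjusted p = 0.144). A second SDHD probe set gave 0.12, so the probe sets of this gene disagree in size. SDHC, the other anchor, had 0.01, and its second probe set 0.18. SDHD is on chromosome 11, but its kept probe set is numbered next to that of ATP5IF1 on chromosome 1. SDHC is on chromosome 1, but its kept probe set is numbered between those of ATP5MC1 and ATP5PD on chromosome 17. Both may therefore measure copies of these genes, and probe locations were not at hand to check.

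Complex V, the ATP synthase, had 9 of its 18 genes above 0, a median of 0.04 and none past the threshold in any comparison. In the catalytic head and central stalk, ATP5F1D (the delta subunit) had 9.41 and 9.35 for CTRL miR, 9.72 and 9.73 for miR1, and 9.61 and 9.55 for miR2. Its groups did not overlap, and the average of 0.27 (95% interval -0.01 to 0.55) did not pass (adjusted p = 0.249). ATP5F1A and ATP5F1B, the alpha and catalytic beta subunits, had 0.17 and -0.03, and ATP5F1C, the gamma subunit that turns inside the head, had -0.13.

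The genes ATP5MC1, ATP5MC2 and ATP5MC3 encode the same mature c subunit of the rotor ring. Their average differences were 0.23, 0.15 and 0.22, with a median of 0.22, the highest of the complex V roles with more than 1 gene. With SHP2 miR1 they were 0.36, 0.27 and 0.25, and with SHP2 miR2 0.09, 0.03 and 0.19, none past the threshold. The peripheral stalk, which holds the head still, had a median of -0.04 over 4 genes, with -0.10 for ATP5PO. The 6 small membrane subunits had a median of -0.06, and ATP5IF1, the inhibitor that blocks ATP hydrolysis, had 0.17.

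Set side by side, the 5 complexes had average medians of 0.08 (I), 0.12 (II), 0.01 (III), 0.05 (IV) and 0.04 (V), against 0.02 over all genes. With SHP2 miR1 the medians were 0.08, 0.07, 0.12, 0.08 and 0.09, against 0.04 over all genes. With SHP2 miR2 they were 0.08, 0.16, -0.02, 0.00 and 0.03, against -0.01. Over all genes above the 40th percentile of probe set means, the median was -0.03 on average and with each SHP2 miR. Complex II rests on 3 genes, and its SHP2 miR1 median went from 0.07 to 0.22 with the second probe sets of SDHC and SDHD. On single arrays, the complex III median was 0.16 and 0.08 for miR1 and -0.02 and 0.03 for miR2. The complex IV median was 0.10 and 0.13 for miR1 and 0.02 and 0.00 for miR2, and the complex V median 0.07 and 0.12 for miR1 and -0.07 and -0.03 for miR2. The median over all genes had the same order of arrays, with 0.03 and 0.02 for miR1 and -0.01 and -0.01 for miR2. Genes above the 40th percentile of probe set means did not have this order. Their median was -0.039 and -0.041 for miR1 and -0.037 and -0.026 for miR2. No test was made between complexes, and the ranges of their members overlap.

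**Figure D3:**
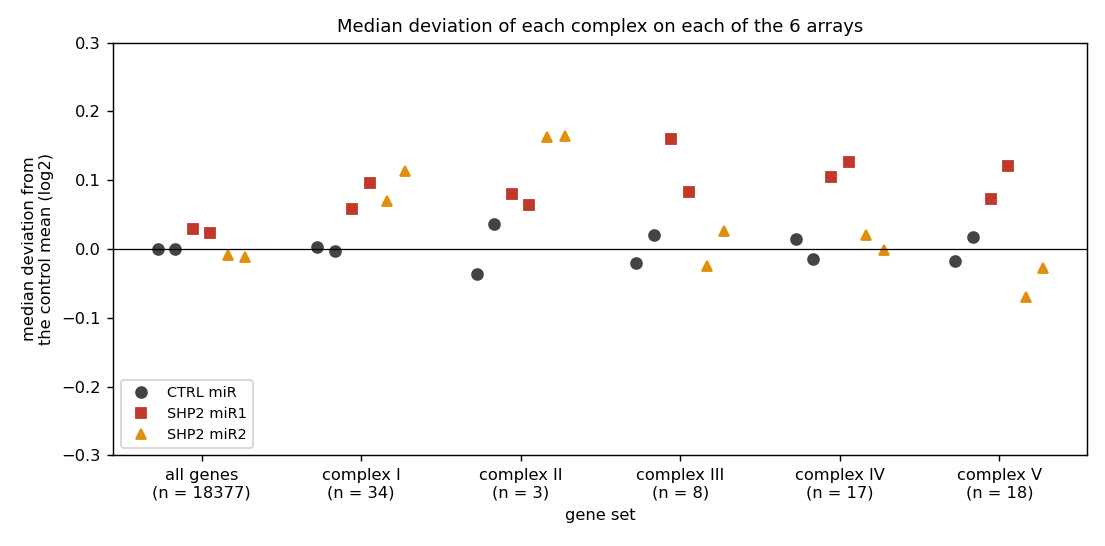
Median, over the genes of each complex and over all genes, of the deviation of each array from the mean of the 2 control arrays (log2). Each point is 1 of the 6 arrays, coloured by group. The medians stay within 0.2 log2 units of 0, and the arrays with SHP2 miR2 lie below those with SHP2 miR1 for complexes III, IV and V and for all genes.

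Each SHP2 miR against control gave few calls. SHP2 miR1 gave 2 subunit genes higher, NDUFB11 and UQCRC1, and 0 lower, against 8.6% of all genes (2.66% higher, 5.94% lower). At an unadjusted p of 0.05, 10 were higher and 2 lower, against 12.1% and 16% of all genes, and 55 differences were above 0 (68.8%, against 54.1%). Both calls were lost when any 1 of the 6 arrays was left out, with adjusted p between 0.0515 and 0.2 for NDUFB11 and between 0.0614 and 0.246 for UQCRC1. The 2 arrays with SHP2 miR1 lay above both controls on 38 subunit genes, against 30.5% of all genes, and below both on 10, against 29%. Centring the arrays on their medians gave 0 calls among the subunits with SHP2 miR1, while over all genes it gave 378 higher and 1536 lower, against 489 and 1092 without it.

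With SHP2 miR2, 0 subunit genes passed in limma, against 0.37% of all genes, 0.19% higher and 0.18% lower. At an unadjusted p of 0.05, 5 were higher and 1 was lower, against 5.14% and 5.88%. The subunits' median was 0.04 and 52 differences were above 0 (65%, against 48.2%), with 24 genes above both controls on both arrays, against 19.8% of all genes, and 10 below both, against 20.8%. Between SHP2 miR2 and SHP2 miR1, 0 subunit genes passed in limma, against 0.19% of all genes (0.152% higher, 0.0381% lower). At an unadjusted p of 0.05, 3 were higher and 3 lower, against 8.72% and 8.94%, and 33 differences were above 0 (41.2%, against 50%). The SHP2 miR1 and SHP2 miR2 comparisons share both control arrays.

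The mean-variance trend, an alternative in which the expected spread depends on brightness, made more calls among these mostly bright genes. It gave 8 subunit genes higher on average (NDUFB11, NDUFB9, NDUFS7, SDHD, CYC1, UQCRC1, COX5B and ATP5F1D) and 0 lower. Of all 18377 genes, 552 were higher and 1241 lower (9.76% in either direction). With SHP2 miR1 it gave 10 subunit genes, all higher, where 809 of all genes were higher and 1977 lower (15.2%). With SHP2 miR2 it gave 3, all higher (CYC1, UQCRC1 and COX5B), where 189 of all genes were higher and 178 lower (2%). Between the SHP2 miRs it gave 1 (UQCRQ, lower with SHP2 miR2), where 321 of all genes were higher and 125 lower (2.43%).

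The subunit genes are short. Their median genomic span in the RefSeq table was 9.08 kb, against 24.5 kb over all genes, and across the 80 genes the difference was larger where the span was shorter. This gene property was looked at after the data were seen. Spearman's rho between span and difference was -0.38 on average, -0.48 with SHP2 miR1 and -0.20 with SHP2 miR2, and over all genes it was -0.23, -0.25 and -0.15. Genes share arrays and are not independent, so rho is given as a description. In the 40 shorter genes, up to 8.92 kb, the median was 0.09, with 13 above and 0 below both controls on all SHP2 miR arrays. In the 40 longer genes it was 0.02, with 7 above and 2 below. With the trend over span removed across all genes, the subunits' average median was 0.01 and that of all genes 0.01, while COX5B still passed at 0.59 (adjusted p = 0.0485). The part of span in the differences was not tested further.

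**Figure D4:**
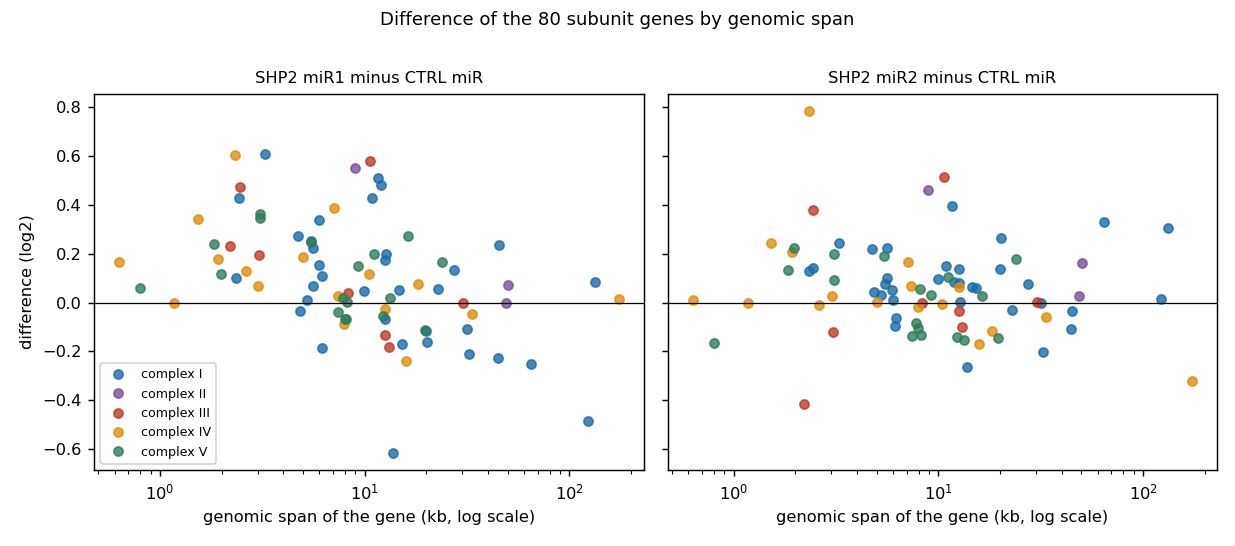
Log2 difference from control of each of the 80 subunit genes against the genomic span of the gene (kb, log scale), for SHP2 miR1 on the left and SHP2 miR2 on the right, coloured by complex. Differences with SHP2 miR1 tend to be higher for shorter genes (Spearman's rho -0.48 across genes), more so than with SHP2 miR2 (-0.20), a contrast that was not tested.

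The rest of the mitochondrial programme was read from lists of other genes. The 21 regulators of mitochondrial biogenesis had a median of -0.20 on average, -0.35 with SHP2 miR1 and -0.09 with SHP2 miR2, against 0.02, 0.04 and -0.01 over all genes. None passed on average, where 4.2% of all genes did, and 3 passed with SHP2 miR1, all lower, where 5.94% of all genes were lower. They are named here after their values were seen. PPRC1, a coactivator of the PGC-1 family, had 7.07 and 7.05 for CTRL miR, 6.36 and 5.95 for miR1, and 6.87 and 6.65 for miR2. It fell by 0.91 with SHP2 miR1 (SE 0.18, adjusted p = 0.0183).

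GABPA and GABPB1 encode the DNA-binding and activating subunits of the ETS factor GABP. GABPA had 7.04 and 7.27 for CTRL miR, 6.28 and 6.62 for miR1, and 6.61 and 6.87 for miR2, and it fell by 0.71 with SHP2 miR1 (SE 0.18, adjusted p = 0.0450). GABPB1 had 6.41 and 6.73 for CTRL miR, 5.28 and 5.99 for miR1, and 6.03 and 6.20 for miR2. It fell by 0.93 with SHP2 miR1 (SE 0.23, limma adjusted p = 0.0427). All 4 SHP2 miR arrays lay below both controls for each of these 3 genes. The GABPA call was lost when any 1 array was left out (adjusted p between 0.0565 and 0.257). The GABPB1 call was lost without any array other than SHP2 miR1 replicate 2 (up to 0.263), and the PPRC1 call without either control or SHP2 miR1 replicate 2 (up to 0.128). NRF1 had -0.24 on average and YY1 -0.28, TFAM, which packages mitochondrial DNA, had 0.00, and PPARGC1A, the gene of PGC-1alpha, had 0.38, none past the threshold. PPARGC1A was dim, with values between 3.56 and 4.19. The median span of the regulators was 33.7 kb, longer than that of the subunits.

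The 19 assembly factors of complex I had a median of -0.12 on average and -0.20 with SHP2 miR1, with 1 gene past the threshold there, DMAC1, which rose by 0.58 (adjusted p = 0.0446), against 2.66% of all genes higher. The 28 assembly factors of complexes II to V had medians of 0.02 and -0.02, and 2 passed with SHP2 miR1, both lower, which is near the 5.94% of all genes that were lower: COX20, which helps to mature a complex IV subunit, fell by 0.59 (adjusted p = 0.0469), and SDHAF4, which helps to join SDHA to its partner, fell by 0.64 (adjusted p = 0.0476). The DMAC1 and COX20 calls were lost when any 1 array was left out (adjusted p up to 0.162 and 0.187), and the SDHAF4 call without any control or SHP2 miR1 array (up to 0.176). None of either list passed on average, where 4.2% of all genes did. The 73 genes of the mitochondrial ribosome had a median of 0.08 on average and 0 calls, against the same 4.2%. Their median span was 8.62 kb. On 20 of them all 4 SHP2 miR arrays lay above both controls and on 3 below, against 12.6% and 13.6% of all genes. The 80 subunit genes had 20 and 2. MRPS12, with the smallest p among them, had 0.48 (adjusted p = 0.0728).

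The 20 genes of the tricarboxylic acid cycle had a median of 0.01 and 0 calls on average, with 0.31 for SUCLG1 (limma adjusted p = 0.227). The 21 import genes had a median of 0.10 and 0 calls, with 0.37 for TIMM13 (adjusted p = 0.165). Over all genes 4.2% passed on average. Of the 17 electron carrier genes, 1 passed on average, against 1.53% of all genes higher: COQ8A, which supports ubiquinone synthesis, rose by 0.82 on average (SE 0.13, limma adjusted p = 0.00924), from 7.39 and 7.33 for CTRL miR to 8.22 and 8.07 for miR1 and 8.23 and 8.21 for miR2. Its call was lost when 1 control array was left out, whichever it was (adjusted p up to 0.119). CYCS, the gene of cytochrome c, had -0.03. Of the 15 uncoupling and carrier genes, SLC25A10, the dicarboxylate carrier, rose by 0.57 with SHP2 miR1 (adjusted p = 0.0487), against 2.66% of all genes higher, a call lost when any 1 array was left out (adjusted p up to 0.213).

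The 11 HIF-linked mitochondrial genes had a median of -0.23, and 1 passed on average, against 2.67% of all genes lower. EGLN3, an oxygen-sensing hydroxylase, fell by 0.92 (SE 0.14, limma adjusted p = 0.0101), from 9.24 and 9.16 for CTRL miR to 8.37 and 8.05 for miR1 and 8.45 and 8.26 for miR2. That call, too, was lost when 1 control array was left out (adjusted p up to 0.105). BNIP3, which marks mitochondria for removal, had -0.46 (adjusted p = 0.0881) and PDK1, which limits pyruvate entry into mitochondria, had -0.42 (adjusted p = 0.173). The list also holds COX4I2, a member of complex IV.

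**Figure D5:**
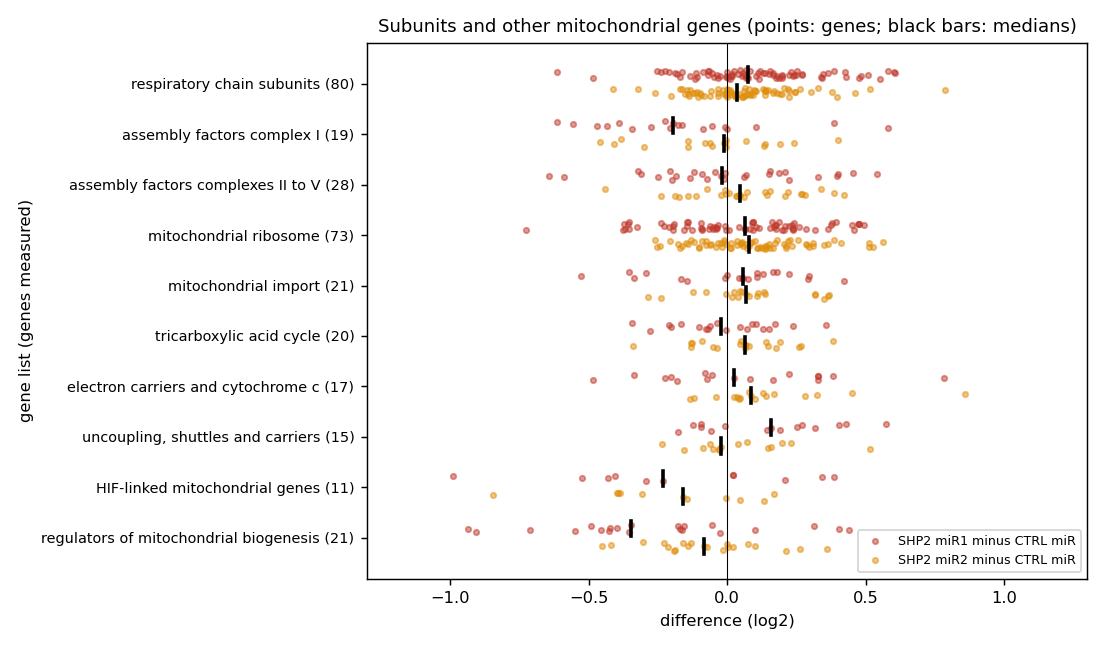
Log2 differences from control of the 80 subunit genes and of 9 lists of other mitochondrial genes, for SHP2 miR1 and SHP2 miR2. Points are genes and black bars are medians. The regulators of mitochondrial biogenesis have the lowest median with SHP2 miR1, at -0.35, and the subunits have 0.07.

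Markers of the studied and other cell types were read on the same arrays. Over all genes 1.53% passed as higher and 2.67% as lower on average, and 2.66% passed as higher with SHP2 miR1. Of 5 basal epithelial genes, KRT14 rose by 1.10 and LAMB3 fell by 1.07 on average, and the KRT14 call was lost without CTRL miR replicate 2 (adjusted p = 0.0855). The mean of 4 leukocyte genes was 4.74 and 4.72 for CTRL miR, 5.17 and 5.19 for miR1, and 5.05 and 4.84 for miR2. Of these, 0 passed on average and CD14 rose by 1.08 with SHP2 miR1 (adjusted p = 0.0366), a call lost without any control or SHP2 miR1 array (up to 0.169), while PTPRC, the defining one, lay near the floor. Of 5 endothelial genes, PECAM1 rose by 0.60, a call lost when any 1 array was left out (adjusted p up to 0.327), and TEK fell by 1.38. Means of the 5 endothelial genes ran only from 4.28 to 5.66. The 6 fibroblast, 4 adipocyte, 5 muscle and 4 general epithelial genes gave 0 calls on average. The smallest p-values of these 4 lists belonged to COL1A1 (-0.25), FABP4 (-0.13), MYH7 (0.34) and KRT18 (0.27). No marker can be at 0 on this log2 scale, and their part in the subunits' differences was not tested.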

How the data were processed

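Total RNA (100 ng an array) was hybridised to 1-colour arrays, 6 in all. The values are the authors' deposited log2 probe set values. Base 2 was inferred from their range. The submitters' processing notes name R 2.10 and oligo 1.8. How the values were normalized and summarised, and on which build, is not given in the sources used here. Medians of the arrays ran from 5.23 to 5.35, and precision is limited by the number of arrays.

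Of 28869 probe sets, the platform annotation gave 19310 a single symbol, 1752 several and 7807 no symbol, which left 18377 genes to test. limma 3.58.1 in R 4.3.3 fitted 3 group means to all 6 arrays, with eBayes, two-sided tests and Benjamini-Hochberg adjustment over all genes at 0.05 (3 residual and 6.1 prior degrees of freedom). The code was tested on simulated data. A set of genes is described by its counts and medians, with no test.

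Genes were named if they were PTPN11, a subunit past the threshold, one of the 2 largest differences in each direction of a complex, an isoform or c ring gene, or up to 3 passing genes of each list by smallest p on average (otherwise 1); others named were chosen after their values were seen. The subunits and lists were chosen with earlier results of these data known. Promoter windows and gene spans are from RefSeq tables of GRCh38.p14. Subunit genes have close copies elsewhere in the genome, and binding of those by the probes was not tested. By their numbers, the kept probe sets of SDHC, SDHD and ATP5MK may lie in such copies, which could not be checked.

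Alternatives were a mean-variance trend, a robust prior, leaving out dim genes, quantile or cyclic loess normalization, centring on medians, averaging probe sets, array weights, fits on the groups compared, a replicate block and leaving out each array.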

Additional observations from a re-analysis of the deposited data

Results flagged for a closer look

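UQCRQ, of complex III, had a difference of -0.64 between SHP2 miR2 and SHP2 miR1. Both arrays with SHP2 miR1 lay above both controls and both arrays with SHP2 miR2 lay below, which is why it is listed. The test of the difference itself did not pass in limma (adjusted p = 0.129), except with a mean-variance trend (adjusted p = 0.0471).

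COX5A, of complex IV, showed the same order of arrays, with a difference of -0.19 between SHP2 miR2 and SHP2 miR1 (95% interval -0.51 to 0.13), which did not pass in limma (adjusted p = 0.497). The same 2 control arrays enter both comparisons.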

How the results depend on the processing

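Counts of subunit genes past the threshold moved with the settings. Averaged over both SHP2 miRs, 1 became 8 with a mean-variance trend, 2 without dim genes, 2 with quantile normalization, 2 with cyclic loess, 2 with averaged probe sets, and 0 to 0 with 1 array left out. With SHP2 miR1, 2 became 10, 5, 4 and 4 under the first 4 of these, and 0 when centred on array medians, with the span trend removed (added after seeing the data) or with only the groups compared, and 0 to 0 with 1 array left out. With SHP2 miR2, 0 became 3 with the trend, and between the SHP2 miRs 0 became 1. Over all genes the average count of 771 (4.2%) became 1793 (9.76%) with the trend. The share was 8.27% without dim genes (of 13047), 3.93% with quantile normalization, 3.83% with cyclic loess and 4.26% with averaged probe sets. With SHP2 miR1, 8.6% became 15.2%, 16.2%, 7.92% and 7.36% under the first 4, 10.4% centred and 7.12% with the span trend removed. With SHP2 miR2, 68 (0.37%) became 367 (2%) with the trend and 154 (1.18%) without dim genes. Between the SHP2 miRs, 0.19% became 2.43% with the trend.

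Replicate numbers are shared between groups, but arrays with the same number did not deviate together in every pair (r = 0.07, 0.14 and 0.01), so they were not treated as pairs. With the replicate block, 1 subunit gene passed on average, 3 with SHP2 miR1 (NDUFB11, UQCRC1 and, lower, NDUFB3 with adjusted p = 0.0475), 0 with SHP2 miR2 and 0 between them. The block moved the average count over all genes from 771 to 817 (4.45%). With SHP2 miR1 that count went from 1581 to 1709 (9.3%), 497 higher and 1212 lower. The counts of SHP2 miR2 and of the SHP2 miRs against each other went from 68 to 37 (0.201%) and from 35 to 12 (0.0653%).

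Of 243 alternative values of the complex medians, 176 moved by less than 1 SD between arrays. Under quantile normalization, cyclic loess, centring and removal of the span trend in turn, the complex I median became 0.14, 0.14, 0.041 and 0.026 on average and 0.19, 0.18, -0.0060 and -0.0024 with SHP2 miR1. That of complex III became 0.24, 0.23, 0.036 and 0.040 with SHP2 miR1, and 0.065, 0.062 and -0.056 on average (quantile, loess, span). That of complex IV became 0.080, 0.071, 0.0099 and -0.023 on average and 0.15, 0.15, -0.0051 and 0.011 with SHP2 miR1. That of complex V became 0.099, 0.10, 0.0049 and -0.018 on average and 0.18, 0.18, 0.0088 and -0.042 with SHP2 miR1. Complex II became 0.13, 0.15, -0.0088 and 0.17 with SHP2 miR1, and 0.15, 0.081 and 0.19 on average (loess, centring, span). With SHP2 miR2, removing the span trend gave 0.20 for complex II and -0.034 for complex IV. Without dim genes complex III became 0.20 and complex IV 0.096 with SHP2 miR1, complex IV 0.020 with SHP2 miR2 and complex V 0.092 on average. For complex II, averaged probe sets gave 0.11 with SHP2 miR1, and the second probe sets of SDHC and SDHD, also added later, gave 0.22 with SHP2 miR1 and 0.13 with SHP2 miR2.

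With 1 array left out, medians ranged from 0.052 to 0.13 (SHP2 miR1) and 0.070 to 0.11 (SHP2 miR2) for complex I. For complex III they ranged from -0.050 to 0.053 on average, 0.083 to 0.22 with SHP2 miR1 and -0.086 to 0.025 with SHP2 miR2. For complex IV the ranges were 0.033 to 0.068, 0.076 to 0.13 and -0.021 to 0.021, and for complex V 0.023 to 0.081, 0.066 to 0.14 and -0.070 to 0.029.

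Of 893 alternative values of single genes, 734 kept their call and direction, 93 lost a call, 28 gained one and 38 turned in sign. Centring turned SDHC to -0.024, COX7A2 to -0.020, COX8C to -0.037, COXFA4 to -0.034 and COXFA4L2 to -0.0056. Centring moves every gene by the same amount (the average median of all genes went from 0.016 to -0.021), so these turns, and the changes of the complex medians under it, follow from that shift and say nothing of the single genes. Quantile normalization and cyclic loess turned COX7B to 0.021 and 0.012 and COX8C to -0.082 and -0.091. Removing the span trend turned COX4I1 to -0.023, COX6A1 to -0.047, COX6A2 to -0.038, COX7A2 to -0.020, COX8C to -0.13, COXFA4 to -0.060 and COXFA4L2 to -0.049. With 1 array left out the ranges were -0.040 to 0.067 for SDHC, -0.29 to 0.0073 for UQCRH, -0.32 to 0.015 for COX7B2, -0.12 to 0.30 for COX6A2, -0.094 to 0.094 for COX8C, -0.17 to 0.23 for COXFA4L2, -0.030 to 0.12 for COX4I1, -0.25 to 0.29 for COX7A2, -0.16 to 0.061 for COX7B and -0.16 to 0.16 for COXFA4. PTPN11 remained past the threshold, at -1.95 to -1.48. The cause of the other changes was not tested. Fits on only the groups compared were run for counts of subunit genes alone.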
